A study of Mus musculus with 12 samples.

Results

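The chemokine genes described here are the genes whose symbol on the array names a CC, CXC, CX3C or XC chemokine ligand or one of their receptors. The symbol rule found 49 of the 19084 genes with a named probe, 32 of them ligands and 17 receptors, and each gene was represented by its brightest probe. Liver RNA of male C57BL/6 mice was hybridised to 12 single-colour arrays, 3 for each of 4 groups, from a study of pure total flavonoids from Citrus (PTFC) in diet-induced fatty liver. The ND group ate a normal diet (12.3% fat) for 24 weeks and the HFD16 and HFD24 groups a high-fat diet (36.1% fat, with 10% lard, 2% cholesterol, 5% egg yolk powder and 0.25% bile salt added) for 16 or 24 weeks. The PTFC group ate the high-fat diet for 6 weeks before PTFC was given into the stomach for 18 weeks at 50 mg per kg per day. The other groups received saline. Each group held 6 of the 24 mice, and all were fasted for 12 h before collection. Mice of HFD16 were 23 to 25 weeks old and the others 30 to 33 weeks, so age cannot be told apart from diet time wherever HFD16 is compared. Every array has a code in its title, and ND array 1 is labelled 31 to 33 weeks old where ND arrays 2 and 3 are labelled 30 to 32 weeks. The labels do not state in words that the arrays of a group are different animals, so the p-values refer to the spread among these arrays alone, and part of it may be technical. No genotype or transgene is named for any group.

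Chemokines are small secreted proteins that bind receptors of the G protein-coupled family on leukocytes and direct where those cells move. CC ligands such as CCL2 act mainly on monocytes, macrophages and T cells, CXC ligands with the ELR motif act on neutrophils through CXCR2, and the interferon-induced CXC ligands act on T and NK cells through CXCR3. In fatty liver disease, liver cells and resident macrophages secrete several of these ligands, and the receptors are carried largely by the leukocytes that enter the tissue.

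Deposited intensities on each array were whole multiples of one number, the scaling step, which was 1.23 to 1.46 on the ND arrays and 0.675 to 1.12 on the others. Array medians ran from 248.9 to 407.8. Differences are therefore given on log2(intensity + 1) after quantile normalization, and intensities given for single arrays are the deposited ones. A gene was called when limma's test, adjusted by Benjamini-Hochberg over all 19084 genes, gave an adjusted p under 0.05. Of the 49 genes 15 lay in the dimmest 25% of genes by mean signal, where folds are least certain. The number of arrays limits the precision throughout. Hepatocyte markers checked the tissue label, with none at 0 and a summed normalized intensity of 1301600 to 1366300 in ND and 1327400 to 1439800 in HFD24.

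HFD24 was compared with ND to see which chemokine genes the high-fat diet changed by 24 weeks. Of the 49 genes, 23 rose and 2 fell, where 10.0% of all genes were called higher and 8.29% lower. That made 46.9% of the chemokine genes higher and 4.08% lower. Of the 32 ligands 15 rose, among them Ccl2, Cxcl9 and Cxcl1, and Cxcl15 fell. Of the 17 receptors 8 rose, with Cx3cr1 and Cxcr4 the highest, and Cxcr1 fell. The median log2 difference was 0.93 over the 49 genes and -0.06 over all genes. The 3 HFD24 arrays lay above the 3 ND arrays for 27 of the 49 genes (15.5% of all genes) and below them for 4 (18.1% of all genes). In the same comparison 7 of 7 monocyte and macrophage markers rose, and their summed intensity was 6220 to 12828 on the ND arrays and 48364 to 80408 on the HFD24 arrays. No measured marker of any list was at 0, and the part of these cells in the chemokine result was not tested. In bulk tissue, fewer cells of a type and less RNA per cell cannot be told apart. Over all 4 groups, limma's F test called 27 of the 49 genes, and 21.4% of all genes, and it called 17 of the 49 without ND array 1. On the deposited scale 18 of the 25 calls held, Ccl22 not among them. Without ND arrays 1, 2 and 3 the calls were 17, 20 and 25, and without HFD24 arrays 1, 2 and 3 they were 17, 20 and 21. ND array 1 is the 1 of the other age label. With the scaling step in the fit 6 held, namely Ccl2, Ccl3, Ccl4, Ccl9, Cx3cr1 and Cxcl1.

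The comparison of PTFC with HFD24, which addressed the extract on the same diet, shares the HFD24 arrays with the comparison above, so the values of both are given side by side and not as independent results. With PTFC 14 of the 49 genes fell and 1 rose, where 3.04% of all genes were called lower and 2.94% higher. Of the ligands 9 of 32 fell, and of the receptors 5 of 17 fell and Cxcr1 rose. The median log2 difference was -0.91 over the 49 genes and 0.01 over all genes. The 3 PTFC arrays lay below the 3 HFD24 arrays for 28 of the 49 genes (15.2% of all genes) and above them for 5 (16.0% of all genes). Monocyte and macrophage markers summed to 25350 to 33772 on the PTFC arrays, between the ND and the HFD24 ranges. Of these markers 1 of 7 passed as lower, and their part in the chemokine result was not tested. Leaving out 1 array changed the count more than in the diet comparison. It was 1 without PTFC array 3, 5 without PTFC array 1 and 9 without PTFC array 2, and 3, 5 and 6 without HFD24 arrays 1, 2 and 3. It was 9 without ND array 2 or HFD16 array 3, and 23 without HFD16 array 1, arrays outside this comparison. Those refits changed both the shared estimate of spread and the normalization, and their parts were not told apart. Over all genes the calls went from 1142 to 11 without PTFC array 3 and to 35 without HFD24 array 1. Without PTFC array 3 the 14 calls that ended had limma adjusted p of 0.0544 to 0.195, and Cxcl1 was the call that held. On the deposited scale, where the median of all genes was 0.24 in place of 0.01, the calls were 3 higher and 6 lower, and 7 of the 15 genes remained.

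**Figure D1:**
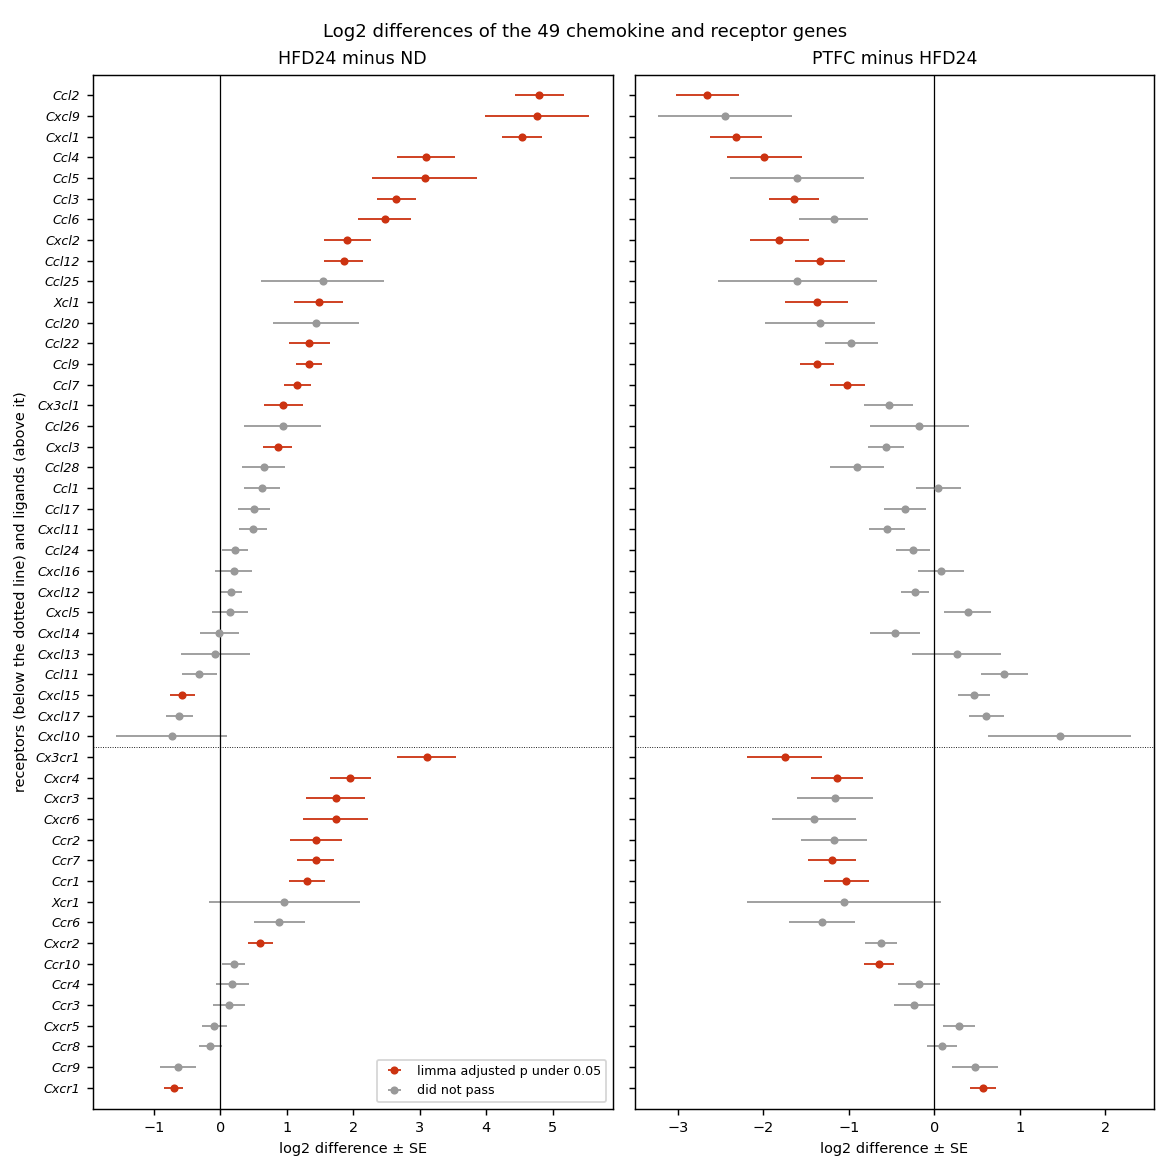
Log2 difference with its standard error for each of the 49 genes in HFD24 minus ND (left) and PTFC minus HFD24 (right), ligands above the dotted line and receptors below it, 3 arrays per group. Red points passed limma at an adjusted p under 0.05: 25 on the left and 15 on the right, with Ccl2 at 4.80 and at -2.66.

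Ligands of CCR2, the receptor that brings monocytes out of the bone marrow and into inflamed tissue, were higher in HFD24 and lower with PTFC. Ccl2 (MCP-1), the main ligand, read 71.8, 112.1 and 66.7 in deposited intensity on the ND arrays and 1435, 2135 and 2558 on the HFD24 arrays. It read 396, 1601 and 1011 on the HFD16 arrays and 509, 277 and 374 on the PTFC arrays. The PTFC arrays thus lay between the ND and HFD24 arrays with no overlap on either side. Ccl2 rose 27.8-fold in HFD24 against ND (log2 4.80 ± 0.36, SE, n = 3 per group, limma adjusted p = 5.12e-05). It fell 6.30-fold in PTFC against HFD24 (log2 -2.66 ± 0.36, limma adjusted p = 0.00804), a call that ended without PTFC array 3 (adjusted p = 0.0544). Ccl12, a mouse CCR2 ligand, rose by 1.85 ± 0.29 in HFD24 and changed by -1.33 ± 0.29 with PTFC, both past the test. Ccl7 (MCP-3) rose by 1.16 ± 0.20 and changed by -1.02 ± 0.20, also past it. The PTFC call of Ccl12 ended without HFD24 array 1 or 2 or PTFC array 1 or 3 (adjusted p of 0.0593 to 0.143), and that of Ccl7 without any compared array but PTFC array 2 (0.0523 to 0.0948). Both were also lost on the deposited scale.

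The receptor Ccr2 had 2 probes that gave unequal sizes. The brighter probe read 1188, 811 and 881 on the ND arrays, 795, 3263 and 1972 on the HFD16 arrays, 2315, 3301 and 2113 on the HFD24 arrays, and 1344, 830 and 1674 on the PTFC arrays. HFD24 lay above ND and PTFC without overlap. It rose by 1.44 ± 0.39 in HFD24 (limma adjusted p = 0.022), and this call ended without ND array 2 (0.0871), HFD24 array 1 (0.0611) or HFD24 array 2 (0.0731). With PTFC its difference was -1.18 ± 0.39, which did not pass (limma adjusted p = 0.0853). The other Ccr2 probe gave 3.80 in HFD24 and -2.53 with PTFC, at unadjusted limma p-values of 8.67e-06 and 0.000452.

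The macrophage inflammatory proteins and their relatives, which draw monocytes and T cells, were called higher in HFD24 in 5 of 5 measured cases. Ccl4 (MIP-1beta) read 209, 262 and 216 on the ND arrays, 299, 2091 and 825 on the HFD16 arrays, 1505, 1653 and 2328 on the HFD24 arrays and 601, 445 and 544 on the PTFC arrays. Its PTFC arrays again lay between those of ND and HFD24. Ccl4 rose 8.51-fold (log2 3.09 ± 0.43) and fell 3.97-fold with PTFC (log2 -1.99 ± 0.43, limma adjusted p = 0.0257, and 0.0522 to 0.125 when any 1 of the 6 compared arrays was left out). Ccl3 (MIP-1alpha) read 123, 101 and 77.9 on the ND arrays, 99.9, 346 and 217 on the HFD16 arrays, 421, 553 and 605 on the HFD24 arrays, and 278, 165 and 216 on the PTFC arrays. The 3 HFD24 arrays stood above those of each other group. Its log2 differences were 2.65 ± 0.29 and -1.64 ± 0.29, both past the test, the latter not without HFD24 array 1 (adjusted p = 0.059) or PTFC array 3 (0.0948).

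Ccl5 (RANTES), made by T cells, NK cells and macrophages, had the widest spread of these ligands in HFD16. It read 539, 747 and 601 on the ND arrays, 770, 21691 and 5123 on the HFD16 arrays, 5817, 6080 and 3689 on the HFD24 arrays, and 1784, 1307 and 2438 on the PTFC arrays. HFD24 lay above ND and PTFC with no overlap, while HFD16 array 1 lay near ND. Ccl5 rose 8.40-fold in HFD24 (log2 3.07 ± 0.78, limma adjusted p = 0.0173), a call that ended without ND array 1 (0.0652) or HFD24 array 1 (0.0624). Its difference with PTFC, -1.61 ± 0.78, did not pass (limma adjusted p = 0.231). Ccl6 rose by 2.47 ± 0.40, and its PTFC difference of -1.18 ± 0.40 did not pass. Ccl9, like Ccl6 a mouse CCR1 ligand, rose by 1.33 ± 0.20 and fell with PTFC (-1.37 ± 0.20, limma adjusted p = 0.0099), to levels whose difference from ND was -0.04 ± 0.20. That fall did not pass without PTFC array 3 (adjusted p = 0.0591).

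Ccr1, a receptor of monocytes and neutrophils, was dim. It read 58.6, 57.9 and 43.3 on the ND arrays, 35.4, 82.4 and 57.6 on the HFD16 arrays, 88.4, 121 and 90.6 on the HFD24 arrays, and 66.8, 83.9 and 55.6 on the PTFC arrays. In deposited intensity HFD24 was the highest group without overlap. Ccr1 rose by 1.30 ± 0.27 (limma adjusted p = 0.00544), a call that did not hold on the deposited scale, and its fall with PTFC of -1.03 ± 0.27 passed narrowly (limma adjusted p = 0.0415). The fall was not called on the deposited scale or without any compared array but PTFC array 2 (adjusted p of 0.0537 to 0.195).

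**Figure D2:**
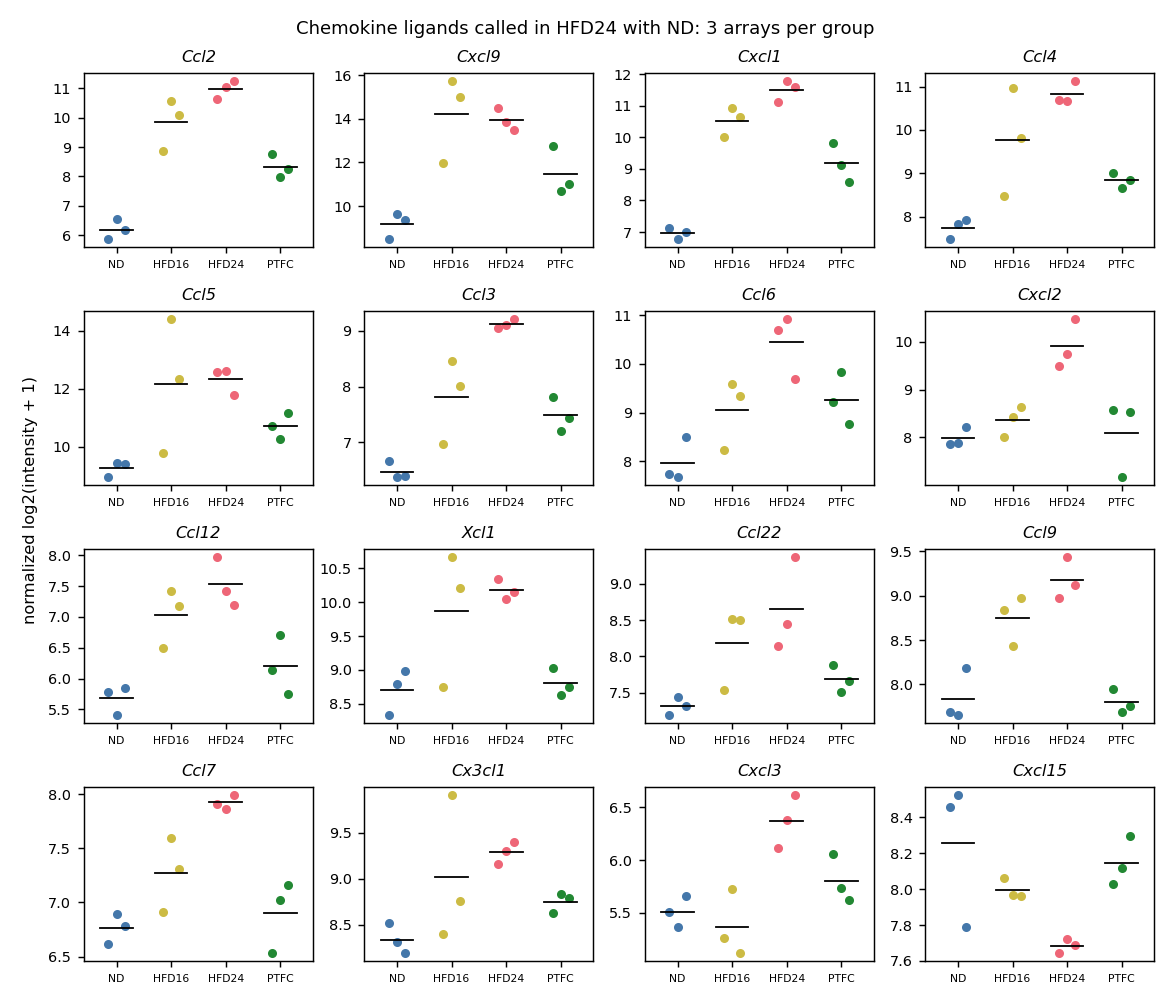
Normalized log2(intensity + 1) of the 16 ligands called in HFD24 with ND, with 1 point per array in order of replicate number, a bar at the group mean, and a separate axis for each gene. Ccl2 and Cxcl1 stand above ND in PTFC as well, and HFD16 array 2 is often the highest of its group.

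The ELR-positive CXC ligands, which draw neutrophils through CXCR2, did not move as one group. Cxcl1 (KC) read 167, 131 and 119 on the ND arrays, 914, 2029 and 1511 on the HFD16 arrays, 2051, 3438 and 3226 on the HFD24 arrays, and 1008, 599 and 471 on the PTFC arrays. Each HFD24 array was above each HFD16 array, and each PTFC array lay between ND and HFD24. Cxcl1 rose 23.1-fold in HFD24 (log2 4.53 ± 0.30, limma adjusted p = 2.25e-05) and fell 5.00-fold with PTFC (log2 -2.32 ± 0.30, limma adjusted p = 0.00804). It kept both calls under each alternative run gene by gene, in which the arrays left out were those of the groups compared. Cxcl2 (MIP-2) read 272, 271 and 269 on the ND arrays, 211, 341 and 345 on the HFD16 arrays, 595, 864 and 1479 on the HFD24 arrays, and 452, 162 and 452 on the PTFC arrays. Unlike Cxcl1, its HFD16 arrays overlapped those of ND in normalized level. Cxcl2 rose by 1.91 ± 0.35 in HFD24 and changed by -1.81 ± 0.35 with PTFC, both past the test, the latter not without HFD24 array 1 (adjusted p = 0.059) or PTFC array 3 (0.0863). Cxcl3 rose by 0.86 ± 0.21, a call lost without ND array 1 (adjusted p = 0.0507), ND array 2 (0.0612) or HFD24 array 3 (0.058), on the deposited scale and with median centring. Its PTFC difference of -0.57 ± 0.21 did not pass. Cxcl5 differed by 0.14 ± 0.27 and 0.39 ± 0.27, neither past the test.

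Cxcl1, Cxcl2 and Cxcl3 are neighbouring genes that hold the same letters before their starts. These bases are shown together with those of Cxcl9, which rose, and Cxcl12, which was not called in any comparison. They are 150 bases each from RefSeq on GRCm38.p6, 5′ to 3′ on the gene's strand, at chr5:90891095-90891244, chr5:90903749-90903898, chr5:90785951-90786100 and chr6:117168385-117168534 (plus strand; Cxcl12 on chromosome 6) and chr5:92328080-92328229 (minus strand). Capitals mark matches on either strand to the kappaB consensus, the letters that NF-kappaB proteins are known to bind.
Cxcl1: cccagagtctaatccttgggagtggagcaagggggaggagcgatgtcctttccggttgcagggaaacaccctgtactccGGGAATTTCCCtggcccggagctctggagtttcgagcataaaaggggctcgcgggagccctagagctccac
Cxcl2: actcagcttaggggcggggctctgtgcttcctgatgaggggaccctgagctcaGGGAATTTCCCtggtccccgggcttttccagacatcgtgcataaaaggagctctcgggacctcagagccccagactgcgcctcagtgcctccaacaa
Cxcl3: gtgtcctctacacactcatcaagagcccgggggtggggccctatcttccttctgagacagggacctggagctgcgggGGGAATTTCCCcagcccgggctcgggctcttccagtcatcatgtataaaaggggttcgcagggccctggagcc
Cxcl9: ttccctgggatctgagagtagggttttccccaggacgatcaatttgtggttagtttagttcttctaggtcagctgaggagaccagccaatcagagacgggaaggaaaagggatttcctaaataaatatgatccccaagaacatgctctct
Cxcl12: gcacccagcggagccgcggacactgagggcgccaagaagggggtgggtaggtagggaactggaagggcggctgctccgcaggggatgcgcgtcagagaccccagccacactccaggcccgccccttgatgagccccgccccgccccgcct
In Cxcl1, Cxcl2 and Cxcl3 the 2 overlapping matches, 1 on each strand, begin at position -71, -97 and -73 from the start of the gene. Of the 49 genes 35 had a promoter entry, and 10 of their 37 promoters held a kappaB consensus match in the 250 bases before the start, as did 7.25% of 32851 promoters. The looser pattern GGGNNNNNCC was held by 21 of the 37 and 45.8% of all promoters. The narrower one was chosen after this was seen. Cxcl9 and Cxcl12 hold no match to the narrower pattern. Their matches to the looser one, at -130 and -129 in Cxcl9 and at -36 in Cxcl12, are not in capitals. The interferon-linked patterns GAAANNGAAA and TTCNNNGAA were held by 2 and 3 of the 37, against 2.98% and 7.02% of all promoters. Of the 10 genes with a consensus match 5 rose in HFD24, with a median log2 difference of 1.09, and of the 25 without one 13 rose, with a median of 0.96. A match describes letters only. No entry was matched for Ccl2, Ccl4, Ccl5 and Ccl7.

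The receptors of these ligands moved apart. Cxcr1 read 343, 294 and 269 on the ND arrays, 107, 126.9 and 132 on the HFD16 arrays, 137.8, 166 and 163 on the HFD24 arrays, and 306, 311 and 310 on the PTFC arrays. ND and PTFC were high and both saline-treated high-fat groups low, with no overlap between these pairs of groups. Cxcr1 fell by 0.70 on the log2 scale in HFD24 (SE 0.15, limma adjusted p = 0.0063) and rose by 0.57 ± 0.15 with PTFC (limma adjusted p = 0.0432). The rise was lost when any 1 of the 6 compared arrays was left out (adjusted p of 0.071 to 0.152). Cxcr2, the main receptor of neutrophils, read 45.4, 40.7 and 33.4 on the ND arrays, 33.3, 43.9 and 43.0 on the HFD16 arrays, 40.9, 46.1 and 44.4 on the HFD24 arrays and 38.2, 40.2 and 43.3 on the PTFC arrays. These dim deposited values overlap. After normalization Cxcr2 was called 0.60 ± 0.19 higher in HFD24 (limma adjusted p = 0.0407), a call that ended on the deposited scale, with median centring, and without any compared array but ND array 3 (adjusted p of 0.0534 to 0.153). Its PTFC difference of -0.62 ± 0.19 did not pass. Of the neutrophil markers 3 of 8 rose in HFD24, with sums of 1691 to 2228 in ND, 4398 to 5744 in HFD24 and 2270 to 2971 in PTFC. Their part in the Cxcl1 and Cxcl2 result was not tested.

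The interferon-induced ligands of CXCR3, a receptor of activated T cells, differed in size and level. Cxcl9 (MIG) read 401, 845 and 594 on the ND arrays, 3801, 53875 and 31712 on the HFD16 arrays, 21794, 14245 and 11497 on the HFD24 arrays, and 6926, 1720 and 2156 on the PTFC arrays. All arrays of the other groups stood above those of ND, and HFD16 spread the most. Cxcl9 rose 27.2-fold in HFD24 (log2 4.76 ± 0.78, limma adjusted p = 0.00183), and a second probe gave 3.07. Its PTFC difference was -2.45 ± 0.78 and did not pass (limma adjusted p = 0.0784), although the 3 PTFC arrays lay below the 3 HFD24 arrays. Cxcl11 differed by 0.49 ± 0.21 and -0.56 ± 0.21, neither past the test. Cxcl10 was among the dimmest probes of the array, listed at 0 on the 3 HFD24 arrays, at 1.46, 1.23 and 0 on the ND arrays, at 3.12, 61.4 and 9.43 on the HFD16 arrays and at 3.82, 0 and 5.15 on the PTFC arrays. No fold is given for it against HFD24.

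The receptor Cxcr3 read 111, 143 and 98.9 on the ND arrays, 126.9, 996 and 346 on the HFD16 arrays, 328, 312 and 329 on the HFD24 arrays, and 211, 179 and 182 on the PTFC arrays. The HFD24 arrays were above those of ND and PTFC. Cxcr3 rose by 1.74 ± 0.44 in HFD24 (limma adjusted p = 0.0173), and this ended without ND array 1 (0.0683) or HFD24 array 1 (0.0672) and on the deposited scale. With PTFC the difference was -1.16 ± 0.44, which did not pass. T cell markers rose in 2 of 7 cases in HFD24. They summed to 4114 to 4603 in ND, 5766 to 6693 in HFD24 and 4214 to 4769 in PTFC, and their part was not tested.

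Among the remaining receptors Cx3cr1, carried by monocytes and resident macrophages, had the largest difference. It read 145, 160 and 167 on the ND arrays, 204, 1126 and 604 on the HFD16 arrays, 1232, 1103 and 1317 on the HFD24 arrays, and 342, 684 and 343 on the PTFC arrays. The PTFC arrays lay between ND and HFD24. Cx3cr1 rose 8.59-fold (log2 3.10 ± 0.44, limma adjusted p = 0.000982) and fell 3.37-fold with PTFC (log2 -1.75 ± 0.44, limma adjusted p = 0.0387). The fall ended on the deposited scale and without any compared array but PTFC array 2 (adjusted p of 0.0771 to 0.182). Its ligand Cx3cl1 (fractalkine), a membrane-bound chemokine, rose by 0.95 ± 0.29 in HFD24 (limma adjusted p = 0.0382), a call lost when any 1 of the 6 compared arrays was left out (adjusted p of 0.0745 to 0.103). Its PTFC difference was -0.54 ± 0.29.

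Cxcr4, which holds leukocytes in tissue and marrow, read 51.3, 56.7 and 45.7 on the ND arrays, 58.2, 206 and 81.7 on the HFD16 arrays, 157, 147 and 157 on the HFD24 arrays, and 95.4, 92.5 and 102 on the PTFC arrays. The ND, PTFC and HFD24 arrays did not overlap. Cxcr4 rose by 1.95 ± 0.31 in HFD24 (limma adjusted p = 0.00153) and changed by -1.14 ± 0.31 with PTFC (limma adjusted p = 0.0458, not passed without any 1 of the 6 compared arrays, at 0.0781 to 0.172, or on the deposited scale). Its ligand Cxcl12, made by stromal cells, was bright at 59839 to 73860 in HFD16 and 62988 to 83190 in HFD24, and differed by 0.16 ± 0.16 and -0.23 ± 0.16, neither past the test. Cxcr6, a receptor of liver-resident T and NKT cells, read 186, 306 and 248 on the ND arrays, 286, 2003 and 826 on the HFD16 arrays, 862, 895 and 493 on the HFD24 arrays, and 400, 237 and 400 on the PTFC arrays. HFD24 lay above ND and PTFC, with HFD24 array 3 the lowest of its group. Cxcr6 rose by 1.73 ± 0.49 in HFD24 (limma adjusted p = 0.0268), and this ended without ND arrays 1 (0.114) or 2 (0.0559) or HFD24 arrays 1 (0.103) or 2 (0.0733). Its PTFC difference of -1.41 ± 0.49 did not pass, and its ligand Cxcl16 differed by 0.20 ± 0.27 and 0.08 ± 0.27.

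Ccr7, which guides dendritic cells and T cells to lymph nodes, read 211, 190 and 169 on the ND arrays, 177, 644 and 375 on the HFD16 arrays, 399, 436 and 491 on the HFD24 arrays, and 243, 235 and 269 on the PTFC arrays. HFD24 again lay above ND and PTFC. Ccr7 rose by 1.43 ± 0.28 (limma adjusted p = 0.00447) and changed by -1.20 ± 0.28 with PTFC (limma adjusted p = 0.0322). Leaving out any 1 of the 6 compared arrays ended the PTFC call, at adjusted p of 0.0669 to 0.132, and so did the deposited scale. Ccl22, a macrophage and dendritic cell product that acts on CCR4, rose by 1.34 ± 0.31, and its PTFC difference of -0.97 ± 0.31 did not pass. Xcl1, made by activated T and NK cells, rose by 1.48 ± 0.37 in HFD24, not without ND array 1 (adjusted p = 0.071) or HFD24 array 1 (0.0574). Its PTFC change of -1.38 ± 0.37 passed (limma adjusted p = 0.0451), but not without any 1 of the 6 compared arrays (0.0732 to 0.179) or on the deposited scale. Dendritic cell markers rose in 5 of 6 cases in HFD24 and fell in 2 of 6 with PTFC, with sums of 1002 to 1453 in ND, 1811 to 2200 in HFD24 and 1017 to 1254 in PTFC. Their part in the Ccr7 and Ccl22 values was not tested.

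The other receptors gave few calls. Ccr10 read 159, 176 and 157 on the HFD24 arrays and 145, 132 and 157 on the PTFC arrays, against 171, 170 and 180 on the ND arrays and 141, 174 and 170 on the HFD16 arrays. Those deposited values nearly meet. Its call of -0.65 ± 0.18 with PTFC was marginal (limma adjusted p = 0.0497) and ended in each leave-out of a compared array (0.0625 to 0.162) and on the deposited scale, and its HFD24 difference was 0.20 ± 0.18. Ccr6 differed by 0.89 ± 0.38 in HFD24 and by -1.32 ± 0.38 with PTFC, and Ccr9, which homes T cells to the gut, by -0.64 ± 0.27 and 0.47 ± 0.27. None of these passed. For Ccr3 (0.13 ± 0.24 and -0.24 ± 0.24), Ccr4 (0.18 ± 0.25 and -0.18 ± 0.25), Ccr8 (-0.15 ± 0.17 and 0.09 ± 0.17) and Cxcr5 (-0.10 ± 0.19 and 0.29 ± 0.19) the arrays of HFD24 and ND overlapped. Xcr1, the marker of cross-presenting dendritic cells, differed by 0.96 ± 1.13 and -1.06 ± 1.13, neither past the test. For Xcr1 and Ccr6 the 3 HFD24 arrays lay above those of ND and PTFC in normalized level. The SE rests on the spread in all 4 groups, and the SD of Xcr1 was 3.49 in HFD16 against 0.57 in HFD24.

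**Figure D3:**
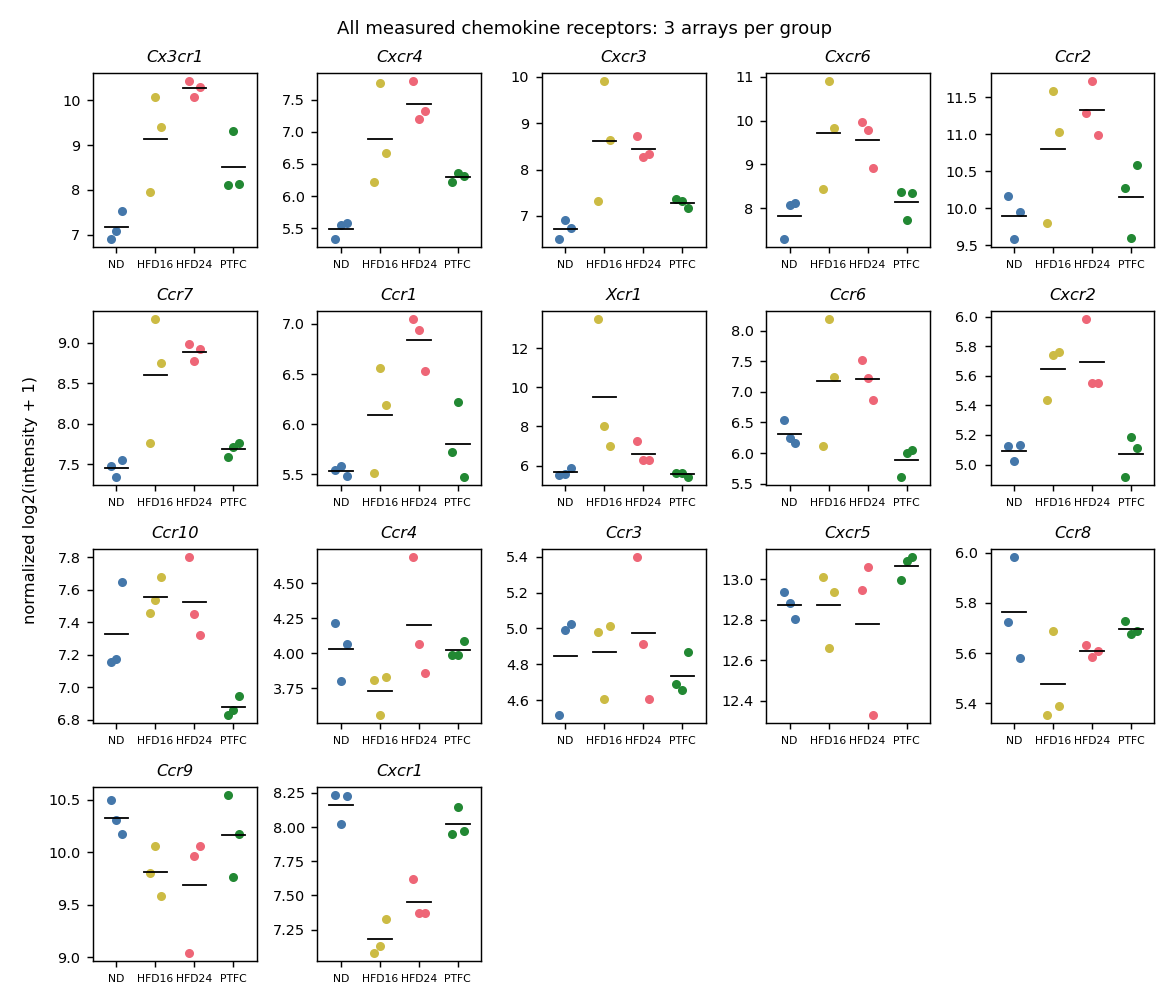
Normalized log2(intensity + 1) of the 17 receptors, ordered by their HFD24 minus ND difference, with 1 point per array, a bar at the group mean and a separate axis for each gene. Cxcr1 is low in both saline-treated high-fat groups, and Xcr1 has 1 HFD16 array at 13.48 against 8.03 and 6.99 for the others.

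Among ligands, Cxcl15 was the 1 that fell in HFD24 (log2 -0.57 ± 0.19, limma adjusted p = 0.0479), a call lost without any compared array but ND array 3 (0.0863 to 0.187) and on the deposited scale. The 16 ligands not called there ran from Cxcl10 to Ccl25. Ccl25, singled out after its values were seen, read 725, 656 and 23255 on the HFD24 arrays. The third of these stands alone, since the other 9 arrays of the study gave 612 to 1114 and a second, dimmer Ccl25 probe gave a log2 difference of -0.03. Its difference of 1.53 ± 0.93 did not pass. Cxcl14, a chemokine of epithelia, also depended on the probe. Its brighter probe differed by -0.02 ± 0.29 in HFD24 (SE, 3 arrays per group). Its dimmer probe differed by 1.60 in HFD24 and by -1.32 with PTFC, at unadjusted p of 1.32e-05 and 9.44e-05 in limma's fit across all probes.

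The comparison of HFD16 with ND addressed the diet at 16 weeks, with younger mice in HFD16. Of the 49 genes 17 rose and 1 fell (34.7% and 2.04%), where 10.0% of all genes were called higher and 8.11% lower, and the median log2 difference was 0.68 against -0.03 over all genes. The 4 of smallest p were Cxcl1 (log2 3.56 ± 0.30), Ccl2 (3.66 ± 0.36) and Cxcl9 (5.06 ± 0.78), which rose, and Cxcr1, which fell (-0.98 ± 0.15, limma adjusted p = 0.00208). The 4 measured genes of the CXCR3 axis were called higher, with Cxcl11 at 0.73 ± 0.21 and Cxcr3 at 1.91 ± 0.44. Without ND array 1 neither of these passed, nor did Cxcl11 without ND array 3 or HFD16 arrays 2 or 3 (adjusted p of 0.0533 for Cxcr3 and 0.0719 to 0.118 for Cxcl11). The Cxcl10 call rested on values near 0, and it was lost without HFD16 array 2 (adjusted p = 0.0617) or ND array 2 (0.0508). Xcr1 was called at 3.85 ± 1.13 from HFD16 arrays of 11071, 250 and 103 against ND arrays of 57.1, 57.9 and 54.4. HFD16 array 1 stood far from the others, and without it the difference was 1.86 (limma adjusted p = 0.00238), while without ND arrays 1, 2 or 3 the call ended (0.0969, 0.0826 and 0.0532). Leaving out ND array 1 lowered the count of 18 to 11, and leaving out ND array 2, HFD16 array 2 or HFD16 array 3 lowered it to 13, 12 or 13.

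The HFD16 arrays differed among themselves in one direction. Array 1 was the lowest of the 3 for 35 of the 49 genes and array 2 the highest for 33, where array 1 was lowest for 31.9% and array 2 highest for 35.6% of all genes. The median SD over the 49 genes was 0.475 in HFD16 and 0.256, 0.272 and 0.273 in ND, HFD24 and PTFC, against 0.203 for all genes in HFD16. Monocyte and macrophage markers summed to 15443, 79884 and 61032 on HFD16 arrays 1, 2 and 3, and T cell markers to 4423, 10891 and 6952. Both were in the same order as the chemokine genes, and their part in this spread was not tested.

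HFD24 was compared with HFD16 for the further 8 weeks of diet and age together. No member passed in this comparison by limma (smallest adjusted p = 0.164), and 0.0157% of all genes were called higher and 0.0210% lower. At an unadjusted p under 0.05 there were 13 of the 49 genes (26.5%) and 9.75% of all genes, and the count of called genes was 0 under each alternative too. The median log2 difference was 0.21. The 4 of smallest p were Cxcl10, listed at 0 in HFD24, Cxcl3 (1.00 ± 0.21), Cxcl2 (1.54 ± 0.35) and Ccl3 (1.31 ± 0.29). For Cxcl2, Cxcl3 and Ccl3 the 3 HFD24 arrays lay above the 3 HFD16 arrays in normalized level.

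PTFC was set against ND to see what remained different from the normal diet. Ccl2 and Cxcl1 were called higher, where 1.04% of all genes were called higher and 1.28% lower. Cxcl1 stood 4.62-fold above ND (log2 2.21 ± 0.30, limma adjusted p = 0.00392) and Ccl2 4.41-fold (log2 2.14 ± 0.36, limma adjusted p = 0.0134). The Ccl2 call ended without ND array 1 or PTFC array 3 (adjusted p of 0.0547 to 0.069), which left 1 called gene, and without HFD16 arrays 1 or 2 the count was 6 or 4. Ccl3 (1.01 ± 0.29) and Ccl6 (1.29 ± 0.40) came next in p and did not pass. Cxcl9 had the largest difference of the 49 genes (2.31 ± 0.78) and did not pass (limma adjusted p = 0.139). The median log2 difference over the 49 genes was 0.19. The 3 PTFC arrays lay above the 3 ND arrays for 14 of the 49 genes and 1912 of all 19084 genes. They lay below for 2 of the 49 and 2316 of all genes.

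Many of these genes lie in clusters, and the counts of each are listed here, with differences between clusters not tested. Over all genes, 10.0% were called higher and 8.29% lower in HFD24 against ND. With PTFC against HFD24, 2.94% were called higher and 3.04% lower. Genes were put together where RefSeq places them on a chromosome with gaps under 1 Mb. In the chromosome 11 cluster of Ccl3, Ccl4, Ccl5, Ccl6 and Ccl9, 5 of 5 rose in HFD24 (median log2 2.65) and 3 fell with PTFC (median -1.61). In the other chromosome 11 cluster Ccl2, Ccl7 and Ccl12 rose and fell, while Ccl1 (0.63 ± 0.27 in HFD24) and Ccl11 (eotaxin, -0.32 ± 0.27), a ligand of CCR3, were not called. Of the chromosome 5 neighbours Cxcl1, Cxcl2, Cxcl3, Cxcl5 and Cxcl15, 3 rose and 1 fell in HFD24, and 2 fell with PTFC. Of Cxcl9, Cxcl10 and Cxcl11, also on chromosome 5, 1 rose in HFD24 and 0 fell with PTFC. Ccl24 and Ccl26, a further pair on chromosome 5, gave 0 calls in either comparison. Of the 6 chromosome 9 receptors Ccr1, Ccr2, Ccr3, Ccr9, Cxcr6 and Xcr1, 3 rose in HFD24 and 1, Ccr1, fell with PTFC. On chromosome 8 Ccl22 and Cx3cl1 rose, and Ccl17, like Ccl22 a CCR4 ligand, was not called (0.50 ± 0.24). With PTFC 0 of these 3 genes were called. In a second chromosome 9 pair Cx3cr1 rose in HFD24 and fell with PTFC, and Ccr8 was not called. On chromosome 1 Cxcr2 rose and Cxcr1 fell in HFD24, and Cxcr1 rose with PTFC.

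Other genes of the chemokine pathway were taken from a list of 41, of which 38 were measured. It mixes genes that carry the signal from the receptors (G proteins, arrestins, kinases) with atypical receptors, platelet chemokines, a chemokine-like factor, a chemerin receptor and a peptidase that trims chemokines. In HFD24 against ND 20 of the 38 rose and 2 fell, where 10.0% of all genes were called higher and 8.29% lower, with a median log2 difference of 0.69. Calls of those other kinds, named after their values were seen, are among these counts. The platelet chemokine Pf4 (1.62), the chemokine-like factor Cklf (1.44) and the peptidase Dpp4 (0.70) rose, and the chemerin receptor Cmklr1 fell (-0.65). Pik3cg, the PI3-kinase catalytic subunit that G protein-coupled receptors activate in leukocytes, rose by 1.88 ± 0.30, its adaptor Pik3r5 by 2.92 ± 0.50, and Ncf1, a subunit of the phagocyte oxidase, by 2.01 ± 0.33. Tiam1, an activator of the GTPase Rac, fell by 1.37 on the log2 scale. With PTFC 7 fell and 0 rose in limma's fit, where 3.04% of all genes were called lower and 2.94% higher, with a median of -0.40. Among them were Pik3cg (-1.43 ± 0.30), its second adaptor Pik3r6 (-0.96 ± 0.25), Cklf, a chemokine-like factor (-1.16 ± 0.25), and the cytokine receptor kinase Jak2 (-0.62 ± 0.16). The limma adjusted p of these named falls ran from 0.0241 to 0.043, and single arrays were not left out for them one by one. Several of the pathway genes are leukocyte genes. Marker sums of monocytes and macrophages, neutrophils, T cells and dendritic cells were higher in HFD24 than in ND and PTFC without overlap. Those of NK and B cells overlapped between these groups. The part of these cells in the pathway genes was not tested.

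Of 24 regulators known to act on chemokine genes 21 were measured, and in HFD24 5 rose and 2 fell, against 10.0% of all genes called higher and 8.29% lower. Nfkb2 (1.26 ± 0.19), Relb (1.58 ± 0.40), subunits of the non-canonical NF-kappaB pathway, and Tnfaip3, a brake on NF-kappaB (2.20 ± 0.38), rose. Jun, a subunit of AP-1, fell by 1.49 on the log2 scale. The other calls, named after their values were seen, were Fos, Jun's partner in AP-1 (1.26 ± 0.35), and the cytokine Il1a (1.19 ± 0.30), which rose, and the NF-kappaB inhibitor Nfkbib, which fell (-0.74 ± 0.22). The cytokines Tnf (0.10), Il1b (0.43), Il6 (0.43) and Ifng (-0.02), also named afterwards, were not called. With PTFC 3 fell and 1 rose, where 3.04% of all genes were called lower and 2.94% higher. Nfkb2 (-1.33 ± 0.19), Rela (-0.55 ± 0.14) and Nfkbiz (-1.08 ± 0.25) fell, and the interferon regulatory factor Irf1 rose by 1.23 ± 0.31. The limma adjusted p of these calls ran from 0.0099 to 0.0401. No leave-out of single arrays was run for these regulators one by one. Over all genes, 11 were called in this comparison without PTFC array 3.

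**Figure D4:**
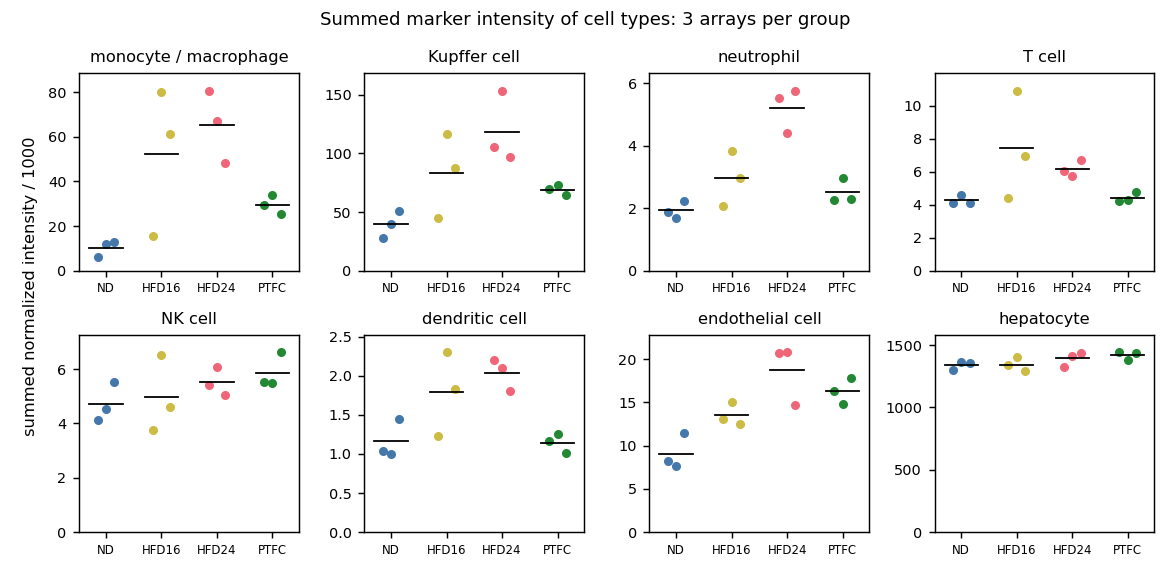
Summed normalized intensity, scaled as the axis states, of marker lists for 8 cell types, with 1 point per array and a bar at the group mean, on axes that start at 0 and differ between panels. Monocyte and macrophage, Kupffer cell, neutrophil and dendritic cell sums on HFD24 arrays lie above those of ND and PTFC, and hepatocyte sums stay within 1289900 to 1440800 over all groups.

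Kupffer cell markers, of the resident liver macrophages, rose in 6 of 7 cases in HFD24, with sums of 27787 to 50947 in ND, 96817 to 152830 in HFD24 and 64156 to 72907 in PTFC. With PTFC 0 of the 7 were called lower, and their median log2 difference was -0.30. NK cell markers rose in 3 of 7 cases in HFD24 (Nkg7 by 2.30, Klra8 by 0.81 and also Gzma) and fell in 1 with PTFC (Klra8, -1.08). They summed to 4139 to 5510 in ND, 5059 to 6069 in HFD24 and 5487 to 6614 in PTFC, where the groups overlapped. Of 4 measured B cell markers 1 rose and 2 fell in HFD24, and 1 rose and 1 fell with PTFC. Their sums overlapped too, at 2147 to 3318 in ND, 2456 to 3197 in HFD24 and 3024 to 3110 in PTFC. Endothelial markers rose in 4 of 6 cases in HFD24, with sums of 7623 to 11417 in ND, 14729 to 20760 in HFD24 and 14831 to 17764 in PTFC. Stellate cell markers rose in 5 of 6, with sums of 10969 to 13382 in ND, 18197 to 32765 in HFD24 and 19185 to 31154 in PTFC, so for both lists the sums of PTFC overlapped those of HFD24. Of the stellate markers 2 of 6 fell with PTFC, Col3a1 (log2 -2.14, limma adjusted p = 0.0232) and Pdgfrb (log2 -1.50, limma adjusted p = 0.0184). For the sums that did not overlap between groups the exact two-sided permutation p was 0.1, the smallest that 3 arrays against 3 allow. The part of these cells in the ligand and receptor values was not tested.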

How the data were processed

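Total liver RNA was measured on 12 single-colour arrays (Cy5). Linear intensity values were deposited for 26423 probes. The scaling used by the authors was not given in the sources used here. Values under 0 were set to 0, log2(intensity + 1) was quantile-normalized over all probes, and the brightest of a gene's probes was kept (21876 probes had 1 symbol). limma 3.58.1 in R 4.3.3 was fitted to all 19084 genes and 4 groups, with Benjamini-Hochberg adjustment, after tests on simulated data. The members and lists were chosen with earlier results of these data known. Named were all genes called in HFD24 with ND or PTFC with HFD24, all receptors and the 4 of smallest p in each other comparison; values by array were given for the 6 largest calls of either and the called receptors. Alternatives were the deposited scale, median centring, a pseudocount of 32, leaving out the dimmest 25% of genes, mean of probes, replicate block, scaling step as a covariate, compared groups only and each array left out; the other probe of a gene was added after seeing the data. Promoters came from RefSeq (GRCm38.p6).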

Additional observations from a re-analysis of the deposited data

How the results depend on the processing

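Gene by gene, single arrays were left out of the compared groups only. No difference of a called gene changed direction under any alternative run gene by gene. All of these kept 6 of the 25 calls in HFD24 with ND, 2 of 18 in HFD16 with ND, 1 of 15 in PTFC with HFD24 (Cxcl1) and 0 of 2 in PTFC with ND; leaving out single compared arrays kept 16, 10, 1 and 1. When the scaling step, largest in ND, entered as a covariate, the counts were 6 in HFD24 with ND, 2 in HFD16 with ND, 0 in PTFC with ND and 16 by the F test, and the cause was not tested. In PTFC with HFD24 the deposited scale gave 9 calls and the replicate block 8. In PTFC with ND the fit on the compared groups alone gave 7. Leaving out 1 array gave 11 to 26 calls in HFD16 with ND, 1 to 23 in PTFC with HFD24, 1 to 6 in PTFC with ND and 17 to 29 by the F test. The deposited scale moved the median of all genes to -0.23 in HFD24 with ND, -0.22 in HFD16 with ND and 0.24 in PTFC with HFD24. Deviations of same-numbered arrays correlated at -0.287 to 0.165 (over 0.1 in 4 of 18 pairs), so the replicate numbers did not pair the arrays; the replicate block left 23, 16 and 2 calls in HFD24 with ND, HFD16 with ND and PTFC with ND. Of the 49 genes 15 are dim, and without the dimmest 25% of genes 21 and 12 passed in HFD24 with ND and PTFC with HFD24.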
